A study of Mus musculus with 4 samples.

Results

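The 43 genes described here encode proteins that copy DNA or divide the cell, and they were named as a list out of the 32285 mouse genes counted in single cells of hyaloid vessels. Of the 43, *Tubb5*, *H2afz*, *Stmn1* and *Hmgb2* are also transcribed in many cells that do not divide. Sums therefore use the other 39, called core genes, unless all 43 are named. Of the core genes, 17 act in S phase and 22 in G2 and mitosis.

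Hyaloid vessels were taken at P6 from *Gpr124* dEC/dEC mice and from *Gpr124* fl/fl littermates. *Gpr124* encodes a receptor that helps WNT7 ligands signal in endothelial cells. In the dEC/dEC mice, tamoxifen given after birth had activated a Cre recombinase driven by the vascular endothelial cadherin promoter, which deletes the floxed gene in endothelial cells. The fl/fl mice carried the floxed alleles but no Cre and received the same tamoxifen, so the genotypes differ in Cre as well as in *Gpr124*. The floxed line was derived from a B6N congenic strain. Vitreous bodies were pooled by genotype into 1 cell suspension, and live single cells went by flow sorting into 2 plates of 384 wells per genotype. Plate 1 of each genotype was sorted for CD31, a marker of endothelial cells, and plate 2 for PDGFRB. PDGFRB is a marker of pericytes, the contractile cells that wrap small vessels. These gates come from plate names matched to the study's publication and are not given in the sample labels. Plate 2 of dEC/dEC also received some CD31-positive cells.

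A cell about to divide first loads helicases onto its replication origins, copies its DNA in S phase and then separates the copies in mitosis. Many S-phase genes are transcribed under E2F factors, and many mitotic genes through CCAAT boxes and the cell cycle genes homology region (CHR) in their promoters. Hyaloid vessels are a transient network that feeds the developing lens and regresses after birth.

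In SORT-seq, RNA from a sorted cell is tagged with a barcode of its well and with a unique molecular identifier (UMI), a random tag that lets each captured transcript be counted once. The mouse genes received 51972 and 174645 UMIs in dEC/dEC plates 1 and 2, and 108059 and 128082 in fl/fl plates 1 and 2. All 4 plates together held 2379 UMIs of the 43 genes, of which 1062 came from the core genes. Most wells were shallow: 1478 of 1536 held fewer than 1000 UMIs after the plates had been scaled to the same median. Of the deeper wells, those with less than 10% mitochondrial UMIs were used, 42 with 1000 to 8000 UMIs and 11 with more. Among the 42, a well with *Cldn5* and no *Pdgfrb* UMIs was classed as endothelial (11 wells) and a well with *Pdgfrb* and no *Cldn5* UMIs as pericyte (21 wells), and these 32 wells are called retained wells. The 15 endothelial marker genes took 152 UMIs per 10000 in endothelial wells and 16.0 in pericyte wells, and the 15 pericyte marker genes took 17.4 and 196. Both lists include the gene that defines the class. Class and gate did not coincide in fl/fl: plate 1, sorted for CD31, gave 2 endothelial and 6 pericyte wells, and plate 2, sorted for PDGFRB, gave 3 and 3. In dEC/dEC, plate 1 gave 4 and 0 and plate 2 gave 2 and 12.

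Each genotype was 1 suspension, so no difference between genotypes was tested, and the wells of a plate are not replicates. Intervals are exact 95% intervals, Poisson for sums, Clopper-Pearson for shares and conditional binomial for ratios. They cover counting error only, of UMIs or, for shares of wells, of the wells counted. For a count of 0 the text gives a floor instead, 3 UMIs over the group, which is 0.269 UMIs per 10000 in the retained wells. The floor lies a little under the upper end of the exact interval, which the bars of the figures show. *Adgra2*, the symbol under which *Gpr124* is listed, had 0 UMIs in the 6 endothelial wells of the dEC/dEC plates, 2 in the 2 endothelial wells of fl/fl plate 1 and 1 in the 3 of fl/fl plate 2. It had 17 UMIs in the pericyte wells of dEC/dEC plate 2, and 6 and 1 in those of fl/fl plates 1 and 2. UMIs lie near the poly(A) end and the deleted exon is not given in the sources used here, so they do not check the deletion.

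The 4 plates use the same 384 barcodes, and wells with the same barcode in different plates resembled each other. Of 61 wells with 300 to 2000 UMIs whose barcode held at least 3000 UMIs in another plate, 60 correlated best, over 4249 genes and among 35 such deep wells of other plates, with the well of their own barcode. The median Pearson r was 0.345 with the same barcode and 0.210 with other barcodes, a description in which genes are not replicates. Shallow wells whose barcode held at least 3000 UMIs elsewhere had a median of 395 UMIs, against 119 where the barcode was shallow in every plate. Of the retained wells, 10 had a barcode that held at least 1000 UMIs in another plate. The main sums are given with and without these 10 wells.

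Endothelial wells held more core UMIs per 10000 than pericyte wells, and the excess rested in part on wells with shared barcodes. In the endothelial wells, 39 of 31048 UMIs came from core genes, or 12.6 per 10000 (8.93 to 17.2). In the pericyte wells it was 42 of 80460, or 5.22 per 10000 (3.76 to 7.06), a ratio of 2.41 (1.52 to 3.81). A single endothelial well of 6901 UMIs in dEC/dEC plate 2 gave 13 of the 39, and without it the ratio was 2.06 (1.21 to 3.44). Without the 10 wells of shared barcodes, the levels were 9.40 (18 UMIs) and 6.18 (33 UMIs), and the ratio of 1.52 (0.807 to 2.78) did not exclude equal levels. By genotype, the ratio was 3.10 (1.54 to 6.43) in fl/fl and 1.92 (0.981 to 3.65) in dEC/dEC with all retained wells. Without the shared barcodes it was 2.64 (1.11 to 6.58) in fl/fl, and in dEC/dEC its direction turned, to 0.587 (0.113 to 1.94; 3 and 23 UMIs). A milder exclusion dropped only wells whose barcode held more UMIs in another plate, which kept the well of 6901 UMIs. The endothelial and pericyte levels were then 12.5 and 5.67 per 10000 in fl/fl and 11.4 and 6.32 in dEC/dEC.

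Pooled over genotypes, both phases were higher in endothelial wells. The S-phase members had 8.05 UMIs per 10000 in endothelial and 3.98 in pericyte wells (ratio 2.02, 1.15 to 3.53), and without shared barcodes the ratio was 1.33 (0.587 to 2.85). The mitotic members had 4.51 and 1.24 (ratio 3.63, 1.499 to 9.13), and without shared barcodes the ratio was 1.95 (0.631 to 5.68). Neither interval excluded 1 without the shared barcodes. By genotype, the mitotic ratio was 6.87 (2.12 to 28.9; 13 and 4 UMIs) in fl/fl and 0.508 (0.0110 to 4.19; 1 and 6 UMIs) in dEC/dEC. These intervals overlap, and the difference between the ratios was not tested. Without shared barcodes the fl/fl ratio fell to 3.09 (0.784 to 14.4; 7 and 4 UMIs), and dEC/dEC had 0 and 6 UMIs. The S-phase ratio was 1.73 (0.634 to 4.59) in fl/fl and 2.32 (1.13 to 4.67) in dEC/dEC, where 12 of the 16 endothelial UMIs lay in the well of 6901 UMIs. Without that well the dEC/dEC ratio was 1.03 (0.256 to 3.05), and without shared barcodes it was 0.795 (0.149 to 2.75), against 2.35 (0.715 to 8.22) in fl/fl.

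By plate, the endothelial level was 6.75 per 10000 in dEC/dEC plate 1, 13.1 in dEC/dEC plate 2, 20.9 in fl/fl plate 1 and 10.05 in fl/fl plate 2. The pericyte level was 5.58 in dEC/dEC plate 2, 4.996 in fl/fl plate 1 and 4.26 in fl/fl plate 2, and dEC/dEC plate 1 had no pericyte well. All 4 endothelial sums lay above all 3 pericyte sums, and only the interval of fl/fl plate 1 (11.1 to 35.7) lay clear of the pericyte intervals. That order rests on 1 well: all 13 core UMIs of dEC/dEC plate 2 lay in the well of 6901 UMIs, and the other endothelial well of that plate held 0 in 3041 UMIs (floor 9.87 per 10000). If each retained well had held only the mean number of core UMIs of the shallow wells of its plate, 6.35 would have been counted in the endothelial wells and 13.7 in the pericyte wells.

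**Figure D1:**
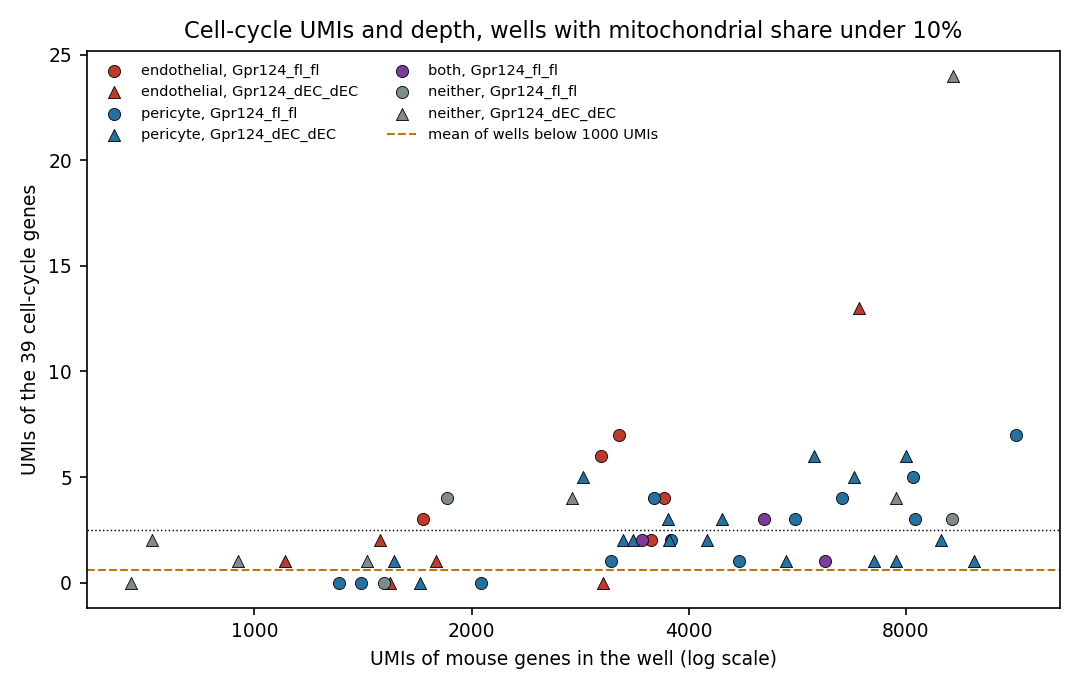
UMIs of the 39 core genes in each well (vertical axis) against the UMIs of all mouse genes in it (horizontal axis, log scale), for the 42 wells of 1000 to 8000 and the 11 of more UMIs, after plate scaling, with a mitochondrial share under 10%. Colour gives the class and shape the genotype, wells above the dotted line have at least 3 core UMIs, the dashed line is the mean of 0.606 in shallow wells, and the highest points are a well of neither class with 24 core UMIs and an endothelial well with 13.

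Among the S-phase members, the largest group loads or follows the replication fork: the helicase subunits *Mcm2* to *Mcm7*, the loading factors *Cdc6* and *Cdt1*, *Gins2* of the active helicase, the sliding clamp *Pcna* and *Uhrf1*, which directs DNA methylation at the fork. These 11 genes gave 50 of the 81 core UMIs of the retained wells. They had 21 UMIs in endothelial wells, or 6.76 per 10000 (4.19 to 10.3), and 29 in pericyte wells, or 3.60 (2.41 to 5.18). Without the well of 6901 UMIs, 10 were left in endothelial wells, or 4.14 (1.99 to 7.62), and without shared barcodes the levels were 4.70 (2.15 to 8.92) and 3.74 (2.29 to 5.78). *Mcm6*, *Mcm7* and *Pcna* were the only core genes with at least 10 UMIs in the retained wells, and together they held 44.4% of the core UMIs.

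*Mcm6* had 0 and 2 UMIs in the endothelial wells of dEC/dEC plates 1 and 2, and 1 and 0 in those of fl/fl plates 1 and 2. In the pericyte wells it had 6 in dEC/dEC plate 2, and 3 and 1 in fl/fl plates 1 and 2. It was the most frequent core gene, at 1.17 per 10000 in the retained wells (0.621 to 1.99). Its endothelial level of 0.966 and pericyte level of 1.24 could not be told apart (ratio 0.777, 0.137 to 3.02). Without the well of 6901 UMIs the ratio was 0.333 (0.00768 to 2.34). *Mcm7* had 0, 1, 1 and 2 UMIs in the endothelial wells of the same 4 plates and 4, 3 and 1 in the pericyte wells. Its ratio of endothelial over pericyte level was 1.30 (0.286 to 4.84), and 0.930 (0.0918 to 5.20) without shared barcodes. In the edgeR fit on class sums without its filter, described below, its log2 fold change (endothelial minus pericyte) was -0.470 (SE 1.10). The direction for *Mcm7* was therefore not stable. *Pcna* had 0, 2, 3 and 1 UMIs in the endothelial wells and 4, 1 and 0 in the pericyte wells, a ratio of 3.11 (0.791 to 12.9). None of these ratios had an interval that excluded 1.

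The other fork members were near the floor in the retained wells. *Mcm2* had 4 UMIs and *Mcm4* 3, *Cdt1* and *Uhrf1* had 2 each, *Mcm3*, *Mcm5* and *Gins2* had 1 each and *Cdc6* had 0. Of the 4 *Mcm2* UMIs, 3 lay in the endothelial well of 6901 UMIs, which also held the single UMIs of *Mcm3* and *Mcm5*.

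The nucleotide supply members *Rrm1* and *Rrm2*, the subunits of ribonucleotide reductase, and *Tyms* and *Tk1*, which make thymidine nucleotides, had 4 UMIs in endothelial and 3 in pericyte wells. Each of these 4 genes had 1 or 2 UMIs in the retained wells. *Ccne1* and *Ccne2*, the cyclins that start S phase, had 0 UMIs in every well of 1000 UMIs or more that passed the filters. In the retained wells the floor for each is 0.269 UMIs per 10000.

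The mitotic members were sparser still. The cyclins *Ccna2*, *Ccnb1* and *Ccnb2* and the kinases *Cdk1*, *Aurka*, *Aurkb*, *Plk1*, *Bub1* and *Bub1b*, which drive entry into mitosis and its checkpoint, had 4 UMIs in endothelial and 1 in pericyte wells. *Cdc20* and *Ube2c*, which act with the ubiquitin ligase that ends mitosis, had 1 UMI in endothelial and 2 in pericyte wells. The 11 genes of chromosomes, kinetochores and the spindle had 9 UMIs in endothelial wells, or 2.90 per 10000 (1.33 to 5.50), and 7 in pericyte wells, or 0.870 (0.350 to 1.79), a ratio of 3.33 (1.10 to 10.5). Without shared barcodes they had 4 and 7 UMIs, and the ratio of 1.59 (0.342 to 6.27) did not exclude 1. *Top2a*, which untangles the copied DNA, had 5 UMIs and was the most frequent mitotic member. *Cenpa*, the histone of centromeres, had 3 UMIs, in 3 endothelial wells of fl/fl mice. *Kif20b*, a motor of cytokinesis, also had 3.

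Of the 22 mitotic members, 8 had 0 UMIs in the retained wells and 9 had 1. The 8 were *Aurka*, *Aurkb*, *Bub1*, *Bub1b*, *Mki67*, *Cenpf*, *Nusap1* and *Kif11*. They include *Mki67*, which encodes the proliferation antigen Ki-67 and had 0 UMIs in the wells over 8000 UMIs and in those of neither or both class markers as well. Counting all such wells, 10 core genes were at 0: these 8 together with *Ccne1* and *Ccne2*.

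Between genotypes, the mitotic members of endothelial wells differed most. The endothelial wells of dEC/dEC plates 1 and 2 held 0 and 1 mitotic UMIs, and those of fl/fl plates 1 and 2 held 8 and 5. Summed, these are 1 UMI, or 0.630 per 10000, in dEC/dEC and 13 UMIs, or 8.56 per 10000 (4.56 to 14.6), in fl/fl, a ratio of 13.6 (2.04 to 577). The shallow-well mean of each plate would give 1.52 and 1.91 mitotic UMIs in these 2 groups of wells. At least 2 mitotic genes were found in 4 of 5 fl/fl and 0 of 6 dEC/dEC endothelial wells, and in 73 of 1478 shallow wells. The count depends on depth, with median totals of 3205 UMIs in the fl/fl and 1663 in the dEC/dEC wells. With each well thinned to 1000 UMIs, the expected numbers were 1.48 of 5 and 0 of 6. Without the wells of shared barcodes the counts were 7 in 4 fl/fl wells and 0 in 4 dEC/dEC wells, and the lower limit of the ratio fell to 0.864, which does not exclude equal levels.

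Blood genes differed along with the mitotic members on 1 plate. The 3 endothelial wells of fl/fl plate 2 held 63, 83 and 87 UMIs of the 9 erythroid markers that the count table holds, with *Hba-a2* the most abundant, whereas those of fl/fl plate 1 held 0 of these UMIs and 8 of the 13 mitotic UMIs. The 6 dEC/dEC endothelial wells held 5 erythroid UMIs. The part of blood RNA in the result was not tested. Of 43 other G2 and mitosis genes outside the list, the fl/fl endothelial wells held 15 UMIs (9.88 per 10000) and the dEC/dEC ones also 15 (9.46). Of the dEC/dEC UMIs, 11 lay in the well of 6901 UMIs. Without that well 4 were left (4.46 per 10000, 1.22 to 11.4), and without shared barcodes the counts were 9 in fl/fl (7.51) and 3 in dEC/dEC (4.18). Whether these genes follow the members thus depends on 1 well.

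For the S-phase members the direction depended on 1 well. Endothelial wells held 9 of their UMIs in fl/fl (5.93 per 10000) and 16 in dEC/dEC (10.1), of which 12 lay in the well of 6901 UMIs, a ratio of 0.588 (0.229 to 1.41). Without that well the ratio was 1.33 (0.371 to 5.90; 9 and 4 UMIs), and without shared barcodes 1.60 (0.384 to 9.35; 8 and 3 UMIs). In pericyte wells the S-phase members had 11 UMIs in fl/fl and 21 in dEC/dEC (ratio 0.789, 0.343 to 1.71). The mitotic members had 4 and 6 there (ratio 1.004, 0.208 to 4.23). For all 39 core genes the ratio of fl/fl over dEC/dEC was 1.35 (0.686 to 2.71) in endothelial and 0.837 (0.414 to 1.63) in pericyte wells. None of these intervals excluded equal levels. Without the well of 6901 UMIs, the dEC/dEC endothelial level fell from 10.7 to 4.46 per 10000 and the ratio of fl/fl over dEC/dEC was 3.25 (1.10 to 13.0). Without all 10 wells of shared barcodes it was 2.996 (0.848 to 16.1) in endothelial wells and 0.665 (0.283 to 1.45) in pericyte wells.

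**Figure D2:**
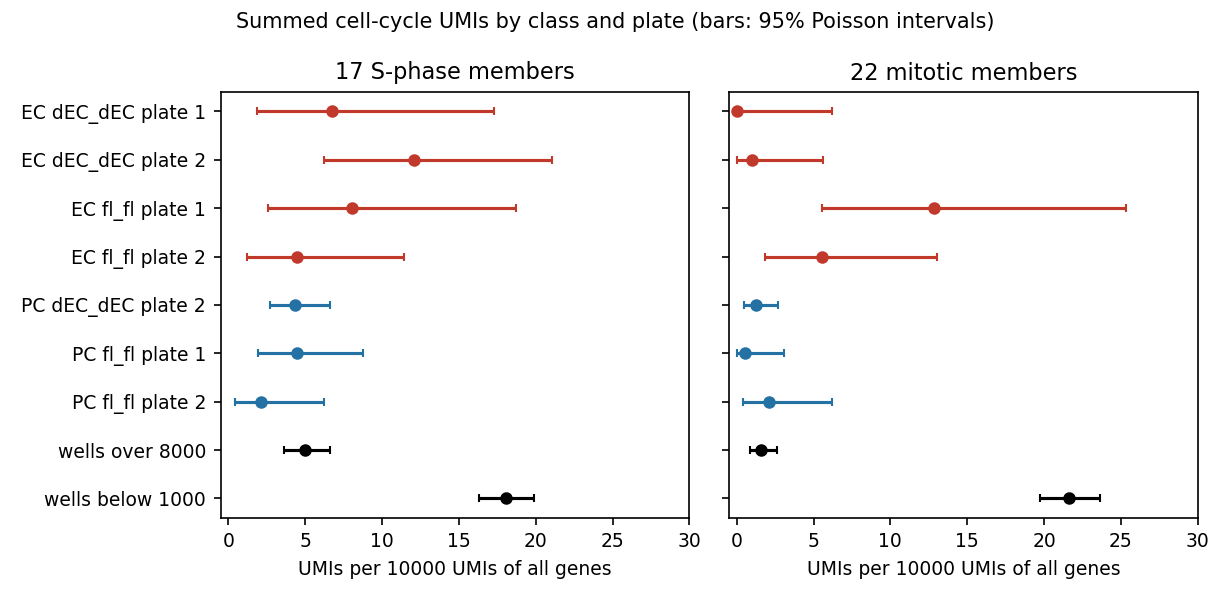
UMIs of the S-phase members (left) and of the mitotic members (right) per 10000 UMIs of all genes (horizontal axes), for endothelial wells (EC, red) and pericyte wells (PC, blue) of each plate and, in black, for wells over 8000 and below 1000 UMIs. Points are sums over wells and bars exact 95% Poisson intervals, and the wells below 1000 UMIs lie at 18.0 and 21.6, above the points of all other groups.

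A well was counted as meeting a cycling rule when it held at least 3 UMIs from at least 2 core genes. The rule counts wells and does not by itself show that a cell was dividing. It was met by 12 of 32 retained wells, 3 of them with a shared barcode. The endothelial wells comprised 4 of 5 in fl/fl (80.0%) and 1 of 6 in dEC/dEC (16.7%). The pericyte wells comprised 3 of 9 in fl/fl (33.3%) and 4 of 12 in dEC/dEC (33.3%). The rule depends on depth: with each well thinned to 1000 UMIs, the expected numbers in the same order were 1.05, 0.285, 0.0850 and 0.285. Without shared barcodes, they were 3 of 4, 0 of 4, 2 of 5 and 4 of 9. Among shallow wells, 56 of 1478 met it (3.79%, 2.87% to 4.89%). At least 1 core UMI was found in 81.8% of endothelial and 81.0% of pericyte wells, and in 66.2% and 37.9% after thinning, against 608 of 1478 shallow wells.

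The endothelial wells that met the rule differed in which members they held. The well of 6901 UMIs in dEC/dEC plate 2 held 13 core UMIs of 9 genes, 12 of them S-phase UMIs, with *Mcm2* (3), *Mcm6* (2) and *Pcna* (2) leading, and its barcode held a well of 5084 UMIs in fl/fl plate 2. A well of 3205 UMIs in fl/fl plate 1 held 7 core UMIs, of which 6 were mitotic: *Kif20b* (2), *Ccnb2*, *Cenpa*, *Tpx2* and *Kif23*, beside *Mcm7*. Its barcode held a pericyte well of 3353 UMIs in dEC/dEC plate 2, in which *Mcm6* (2 UMIs) was the only core gene. The other well of fl/fl plate 1, with 3020 UMIs, held *Pcna* (3), *Mcm6*, *Top2a* and *Cenpa*. In fl/fl plate 2, a well of 3701 UMIs held *Mcm7* (2), *Pcna* and *Rrm2*, and a well of 1715 UMIs held *Ccna2*, *Ccnb1* and *Cenpa*. Thus S-phase members led in the dEC/dEC well and in the fl/fl wells of 3020 and 3701 UMIs, and mitotic members in those of 3205 and 1715 UMIs. Genes outside the list did not always give the same order. Of 30 such S-phase and 43 such G2 and mitosis genes, the dEC/dEC well held 9 and 11 UMIs. The fl/fl wells of 3020, 3701, 3205 and 1715 UMIs held 2 and 1, 3 and 7, 3 and 6, and 1 and 0.

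Of the pericyte wells that met the rule, 2 held 5 core UMIs and the others 3 or 4. In dEC/dEC plate 2, a well of 2853 UMIs held *Mcm7* (2), *Cdk1*, *Ube2c* and *Cenpe*, and a well of 6774 UMIs held 1 UMI each of *Mcm4*, *Mcm7*, *Cdt1*, *Uhrf1* and *Rrm2*. The others in that plate had 3750 UMIs (*Mcm7*, *Gins2*, *Top2a*) and 4451 UMIs (*Mcm6*, *Rrm1*, *Tpx2*). In fl/fl plate 1, a well of 6532 UMIs held *Mcm7*, *Pcna*, *Tk1* and *Ube2c*, and in fl/fl plate 2 a well of 5620 UMIs held *Uhrf1*, *Top2a* and *Birc5*. The remaining well, of 3582 UMIs in fl/fl plate 1, held *Mcm6* (3) and *Mcm7* (1), and so did the well of the same barcode in dEC/dEC plate 2, which had 2758 UMIs and neither class marker. Of the retained wells that did not meet the rule, 6 held 0 core UMIs and 14 held 1 or 2.

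The 4 broadly expressed members gave more UMIs than the 39 core genes. *Tubb5*, a beta-tubulin, had 81 UMIs in the retained wells and *H2afz*, a histone variant, 39, together 53.8% of the UMIs of all 43 genes. *Tubb5* had 5 and 14 UMIs in the endothelial wells of dEC/dEC plates 1 and 2, and 5 and 7 in those of fl/fl plates 1 and 2. In the pericyte wells it had 27, 14 and 9 in dEC/dEC plate 2 and fl/fl plates 1 and 2. Its levels of 9.98 and 6.21 per 10000 gave a ratio of 1.61 (0.992 to 2.56), with an interval that just included 1. Without shared barcodes the ratio was 2.15 (1.14 to 3.997). In the edgeR fit on class sums without its filter, described below, its log2 fold change (endothelial minus pericyte) was -0.189 (SE 0.541). Its direction between the classes thus depended on how the sums were compared.

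*H2afz* had 4, 4, 5 and 6 UMIs in the endothelial wells of the 4 plates and 16, 3 and 1 in the pericyte wells. Its levels were 6.12 and 2.49 per 10000 (ratio 2.46, 1.24 to 4.86). Without shared barcodes the ratio was 1.30 (0.449 to 3.39; 7 and 15 UMIs). *Stmn1*, which destabilises microtubules, had 1, 2, 4 and 1 UMIs in the endothelial wells and 3, 1 and 2 in the pericyte wells (ratio 3.46, 1.05 to 12.1), and without shared barcodes the ratio was 2.23 (0.443 to 10.4; 4 and 5 UMIs). Neither interval without shared barcodes excluded 1 for these genes. *Hmgb2*, a chromatin protein, had 4 UMIs in each class. *Tubb5*, *H2afz* and *Hmgb2* have near-identical relatives or processed copies in the genome among which counting can divide reads, so their levels are uncertain. Together the 4 genes had 62 UMIs in endothelial wells, or 19.97 per 10000, and 80 in pericyte wells, or 9.94 (ratio 2.01, 1.42 to 2.83, and 1.86, 1.15 to 2.97, without shared barcodes). In the edgeR fit without its filter, log2 fold changes were 0.592 for *H2afz*, 0.555 for *Hmgb2* and 0.866 for *Stmn1*. That of *Tubb5*, the gene with the most UMIs, was -0.189, and the fit called 0 members. Pooled over classes, their level was 12.7 per 10000 in wells that met the cycling rule and 12.8 in those that did not. The classes went opposite ways: the level was higher in the endothelial wells that met the rule and lower in the pericyte wells that did, each against the other wells of its class.

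Shallow wells held the core genes at a higher level than any class of retained wells. In the 1478 wells below 1000 UMIs, among which may be wells without a cell, 895 of 225601 UMIs came from core genes, or 39.7 per 10000 (37.1 to 42.4). The plates gave 41.9 and 36.3 in dEC/dEC and 42.6 and 38.7 in fl/fl. Over all plates this was 5.46 times the level in retained wells (4.35 to 6.94). The median shallow well had 127 UMIs and the median retained well 3298, and a shallow well held 0.606 core UMIs on average. Among barcodes that were shallow in every plate the level was 44.6 (41.6 to 47.7), which is 6.34 times that of the retained wells without shared barcodes (4.78 to 8.59).

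All 39 core genes were detected in the shallow wells, against 28 in the retained wells. The S-phase members had 18.0 UMIs per 10000 in shallow and 5.11 in retained wells (ratio 3.53, 2.67 to 4.74). The mitotic members had 21.6 and 2.15 (ratio 10.1, 6.67 to 15.8). Mitotic members thus made up 54.5% of the core UMIs of shallow wells (51.2% to 57.8%) and 29.6% of those of retained wells (19.99% to 40.8%). For 17 core genes, 12 of them mitotic, the interval of the ratio lay above 1, and for 0 core genes it lay below 1. The core genes had 2 to 88 UMIs in shallow and retained wells together, and of the 10948 genes outside the list in that range the interval lay above 1 for 483 (4.41%, against 43.6% of the core genes) and below 1 for 1381 (12.6%).

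Gene by gene, the excess varied. *Rrm2* had 80 UMIs in shallow wells and 2 in retained wells (3.55 and 0.179 per 10000; ratio 19.8, 5.30 to 166). *Cdk1* had 53 and 1 (ratio 26.2, 4.50 to 1054), *Ube2c* 68 and 2 (ratio 16.8, 4.48 to 142) and *Top2a* 80 and 5 (ratio 7.91, 3.25 to 25.02). *Mki67* had 20 and 0, or 0.887 per 10000 (0.542 to 1.37) against the floor of 0.269, with a lower limit of 2.44 on the ratio. Of the 3 core genes with at least 10 UMIs in retained wells, *Mcm6* had 32 and 13 UMIs, or 1.42 and 1.17 per 10000 (ratio 1.22, 0.621 to 2.53). The other genes of this group, *Mcm7* and *Pcna*, had ratios of 3.01 (1.62 to 6.08) and 3.46 (1.83 to 7.22). Of the broad members, *Tubb5* had a ratio of 3.95 (3.13 to 5.05) and *H2afz* one of 3.14 (2.24 to 4.53).

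The excess was smaller in the deepest of these wells and in those with a shared barcode. Wells under 100 UMIs held 41.6 core UMIs per 10000, those of 100 to 200 held 45.7, those of 200 to 500 held 38.9 and the 35 with 500 or more held 14.6 (10.1 to 20.4). Of these 35, 27 had a barcode with at least 1000 UMIs in another plate, and all 121 shallow wells with such barcodes held 19.2 (15.4 to 23.8). Among barcodes shallow in every plate, the same depths gave 41.8, 46.2, 46.9 and, in 8 wells, 14.0 (6.04 to 27.6). The 11 shallow wells with *Cldn5* and no *Pdgfrb* held 17.5 (6.41 to 38.0) and the 34 with *Pdgfrb* and no *Cldn5* 19.1 (12.1 to 28.7). Marker genes of several cell types were present in the shallow wells. Per 10000 UMIs they held 172 of the erythroid markers, with *Hba-a1* the most abundant at 1327 UMIs, 109 of the pericyte markers, 11.9 of the endothelial and 9.97 of the macrophage markers, 7.36 of the lens, 2.93 of the retinal, 2.22 of the astrocyte and 0.222 of the melanocyte markers. Which cells the core UMIs of shallow wells came from was not tested.

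**Figure D3:**
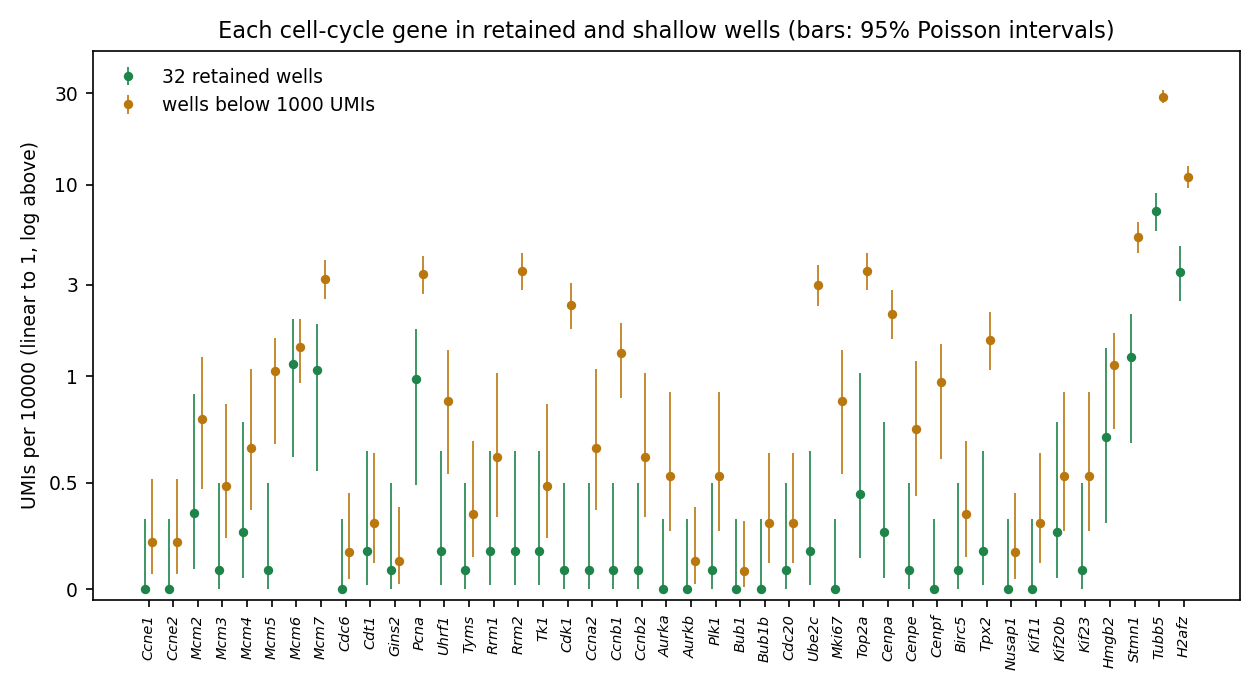
UMIs per 10000 of each of the 43 genes (vertical axis, linear to 1 and logarithmic above) in the 32 retained wells (green) and in the wells below 1000 UMIs (orange), with exact 95% Poisson intervals as bars. *Mki67* and 10 other core genes are at 0 in the retained wells, and *Tubb5* is the highest gene in both groups, at 7.26 and 28.7.

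The 11 wells over 8000 UMIs, of which 8 held *Pdgfrb* and 3 neither class marker, held 62 core UMIs, or 6.54 per 10000 (5.02 to 8.39). Doublets were not called, and such wells may hold more than 1 cell. A well of 9290 UMIs in dEC/dEC plate 2 gave 24 of the 62 from 14 genes, 21 of them S-phase UMIs, among them *Mcm2*, *Mcm3*, *Pcna* and *Tyms* with 3 each. It held 268 UMIs of macrophage markers, against 271 in all 11 wells. Without it the level was 4.45 (3.15 to 6.10). The 7 wells of 1000 to 8000 UMIs with neither class marker held 12 core UMIs, or 12.1 per 10000 (6.27 to 21.2), and the 3 with both held 6, or 4.08 (1.498 to 8.88).

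Across classes, the members were too sparse to enter the test over plates. UMIs were summed per class and plate and compared with edgeR over 4 endothelial and 3 pericyte sums. Each of dEC/dEC plate 2 and fl/fl plates 1 and 2 gave a sum of both classes. The fit treats these sums as independent although they share a plate. These sums come from only 2 suspensions, so the test reflects the spread between plates and not between animals or suspensions. Of 149 genes that passed its filter on low counts, 51 were called (34.2%), 15 higher and 36 lower in endothelial sums, and 0 of the 43 members passed the filter. Without the filter, edgeR tested 32 members and called 0, against 2.11% of all 10827 genes tested, and 0 of the 32 had an unadjusted p under 0.05. DESeq2 was run on the 149 filtered genes and so tested 0 members. At this depth, the fit thus called no single member between the classes.

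The D-type cyclins and their kinases, which carry a cell through G1 before the members act, were more abundant. *Ccnd2* had 4 and 1 UMIs in the endothelial sums of dEC/dEC plates 1 and 2 and 2 and 8 in those of fl/fl plates 1 and 2, or 6.77, 1.01, 3.22 and 8.96 per 10000. In the pericyte sums it had 108, 38 and 26 UMIs in dEC/dEC plate 2 and fl/fl plates 1 and 2, or 22.4, 21.1 and 18.5 per 10000. All 4 endothelial sums lay below all 3 pericyte sums, and the log2 fold change was -2.52 (SE 0.40; edgeR, Benjamini-Hochberg adjusted p = 6.89e-09). Over 11 alternatives it ranged from -3.14 to -1.81 with adjusted p up to 0.0294, the weakest value being that without wells of shared barcodes. In the alternative with all wells of 1000 UMIs or more, *Ccnd2* did not pass the filter and has no value.

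The other genes of this list differed in direction. *Cdk6* had 1 UMI in endothelial and 37 in pericyte wells (ratio 0.0700, 0.00173 to 0.415). *Ccnd3* had 4 and 20 (ratio 0.518, 0.129 to 1.55). *Cdk4*, named after its values were seen, had 11 and 10 (ratio 2.85, 1.10 to 7.49). *Ccnd1* had 15 in each class, 4.83 and 1.86 per 10000 (ratio 2.59, 1.18 to 5.69), and its 15 endothelial UMIs lay in 3 wells that met the cycling rule. Without shared barcodes the ratios were 0.133 (0.00321 to 0.826) for *Cdk6*, 1.74 (0.449 to 6.04) for *Cdk4* and 1.79 (0.685 to 4.45) for *Ccnd1*, so only that of *Cdk6* still excluded 1. Unlike the core sum, *Ccnd1* was not higher in shallow wells, at 1.02 per 10000.

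The inhibitors and regulators of the cycle were given as sums. The 7 inhibitors of cyclin-dependent kinases had 3 UMIs in endothelial wells and 42 in pericyte wells, 33 of them from *Cdkn1c*, which had 1 in endothelial wells (ratio 0.0785, 0.00193 to 0.469). Of 12 growth arrest and p53 genes, endothelial wells held 10.95 UMIs per 10000 and pericyte wells 8.33, with *Btg1* leading at 11 and 25 UMIs (ratio 1.14, 0.506 to 2.40). The 15 genes of RB and E2F had 3.54 and 3.11 per 10000 and the 4 MYC genes 0.644 and 1.24. Of further S-phase genes, 30 in number, the levels were 7.41 (4.70 to 11.1) and 4.85 (3.45 to 6.63), and 13.2 in shallow wells. Without shared barcodes they were 4.70 in endothelial and 4.87 in pericyte wells. The 43 further G2 and mitosis genes had 9.66 (6.52 to 13.8) and 7.83 (6.02 to 10.02), and 31.2 in shallow wells, where all 43 were detected. The higher level in shallow wells therefore extended to these S-phase, G2 and mitosis genes outside the list. Most D-type cyclins and G1 kinases were not higher there. *Ccnd2* had 160 UMIs in shallow and 187 in retained wells, *Cdk6* 26 and 38 and *Ccnd3* 30 and 24. All genes had 225601 UMIs in shallow and 111508 in retained wells. *Cdk4* went the other way, with 106 and 21.

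Of 1113 other genes with enough UMIs, the 10 with the largest ratio between wells that met the cycling rule and the remaining retained wells are given as a description, since the wells were grouped by the members. *Pcnp* had 10 UMIs in the former and 0 in the latter, *5031439G07Rik* and *Zmynd8* 12 and 1 each, *Thrap3* 15 and 2, *Ifi47* 11 and 2, and *9530068E07Rik* 20 and 4. *Sox18* (11 and 1), *Cavin2* (10 and 1) and *Aplnr* (16 and 2) are genes of endothelial cells, and 11, 9 and 16 of these UMIs lay in endothelial wells that met the rule. *Ccnd1*, the only one of the 10 from the cell-cycle lists used here, had 25 UMIs in 6 wells that met the rule and 5 in 5 others.

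Promoters were read to see whether the members share the motifs for which cell-cycle genes are known. Promoters of 35 members were matched by symbol in RefSeq (GRCm38.p6), and the 250 bases before the annotated start were searched on both strands for the CHR (TTTGAA), the CCAAT box (CCAAT) and the E2F motif (TTCCCGC or TTGGCGC). For 23 of the 35, the bases after that start were found in an annotated transcript of the gene, and for the others the start is less sure. The motif TTGGCGC can overlap a CCAAT box by the letters CCAA. The CHR was found in 7 of 19 mitotic members (36.8%) and 1 of 14 S-phase members (7.14%), against 16.3% of all 27025 promoters. The CCAAT box was found in 16 mitotic (84.2%) and 9 S-phase members (64.3%), against 34.5%. The E2F motif was found in 3 mitotic (15.8%) and 6 S-phase members (42.9%), against 5.71%. A match describes the letters in this window and not the binding of a factor.

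Stretches of 120 bases are shown for *Mcm6* and *Top2a*, the most frequent S-phase and mitotic members in the retained wells, and for *Mki67*, which had 0 UMIs there. They lie on the minus strand of GRCm38.p6 at chr1:128359706-128359825, chr11:99024190-99024309 and chr7:135716380-135716499, upstream of each gene's start, and hold 0 bases of an annotated exon. They are written 5′ to 3′ with the motifs in capitals: CCAAT (or ATTGG) and TTGGCGC in *Mcm6*, CCAAT and the CHR (as TTCAAA) in *Top2a*, and the CHR and TTGGCGC in *Mki67*.
Mcm6: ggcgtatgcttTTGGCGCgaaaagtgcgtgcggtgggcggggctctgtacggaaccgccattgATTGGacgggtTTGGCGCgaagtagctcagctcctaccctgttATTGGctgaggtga
Top2a: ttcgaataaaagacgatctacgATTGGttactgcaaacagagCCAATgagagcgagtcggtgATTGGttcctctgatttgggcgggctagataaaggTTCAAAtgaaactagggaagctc
Mki67: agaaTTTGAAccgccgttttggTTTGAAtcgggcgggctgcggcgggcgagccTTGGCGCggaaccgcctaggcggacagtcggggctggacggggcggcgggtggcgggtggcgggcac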

How the data were processed

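Transcripts of single wells were measured on 4 SORT-seq plates, 2 per genotype. For each gene in each well, the authors deposited estimated counts, in UMIs, that were not scaled between wells or plates. Per the submitters' processing notes, reads were mapped to GRCm38 and UMIs counted with STARsolo 2.7.11b. Values of a few UMIs are whole, and larger ones carry a small correction for UMI collisions, so values were rounded before they were summed (of the entries, 94.5% equalled a whole number exactly and 96.5% lay within 0.01 of one). The 92 ERCC spike-ins, synthetic RNAs added to every well, were left out of all totals. No sample was left out.

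Plates were scaled to the highest plate median of well totals only to apply the limits of 1000 and 8000 UMIs. Wells needed under 10% UMIs from 13 mitochondrial genes. Wells below 1000 UMIs, whatever their mitochondrial share, served as a background, and wells over 8000 are given apart. The gates were taken from the study's publication, matched by plate name. All UMIs printed are deposited ones, rounded, and the thinned values are means of 200 seeded draws of 1000 UMIs per well.

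Class sums were compared with edgeR 4.0.16 (quasi-likelihood, TMM, filterByExpr, Benjamini-Hochberg, threshold 0.05) in R 4.3.3 with limma 3.58.1, without *Cldn5* and *Pdgfrb*. DESeq2 1.42.0 was an alternative. Intervals came from scipy 1.17.1 and plots from matplotlib 3.10.9, and tables were handled with pandas 2.3.3 and numpy 2.4.6, all under Python 3.11.15. The class comparison was tested on simulated data, in which 37 of 40 and 39 of 46 tested genes with a planted change were called, with 1 and 3 unchanged genes called. The planted changes were large and lay in abundant genes, and planted genes that failed the filter are not counted. Sums were simulated as independent, unlike the real sums that share a plate. The intervals were tested on simulated data as well.

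Members with at least 10 UMIs in retained wells are given by class and plate and the others by total, and each well that met the cycling rule is described. From the pathway lists, genes with at least 20 UMIs are named, at most 4 a list. Of other genes, the 10 with the largest ratio in wells that met the rule are named, among those with at least 10 UMIs there in at least 3 wells. Members singled out in shallow wells were chosen after their values were seen. The members and lists were chosen with earlier results of these data known. Alternatives changed the cycling rule, the members counted, the depth, scaling, rounding, mitochondrial and class-fit settings and the plates and wells used. Numbers are rounded to 3 significant digits, a few to 4.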

Additional observations from a re-analysis of the deposited data

Results flagged for a closer look

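The 39 core genes took 39.7 UMIs per 10000 in the 1478 wells below 1000 UMIs, on 4 plates. These wells lie outside the class comparisons, and the level is above that of the retained wells, 7.26.

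A well over 8000 UMIs with neither class marker held 24 core UMIs. Such wells enter no comparison of classes or genotypes, and the count is above the floor of 3 UMIs set for a count of 0.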

How the results depend on the processing

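Of 141 values under alternatives, 105 stayed within the limit set for them (the spread between plates or the interval for levels, 1.5 times for counts, the same direction and side of the threshold for *Ccnd2*) and 36 moved. Only the 11 fold changes of *Ccnd2* among them have a direction that could reverse, and none did. The S-phase ratio of fl/fl over dEC/dEC in endothelial wells, which was not called, turned from 0.588 to 1.33 and 1.60 when wells were left out. Where a cause is not given by the alternative itself, it was not tested. Numbers of wells that met the cycling rule are given first. With 2 UMIs instead of 3, 2 endothelial and 7 pericyte dEC/dEC wells met it. With 5 UMIs, 2 fl/fl endothelial, 0 fl/fl pericyte and 2 dEC/dEC pericyte wells met it. Counting all 43 genes gave 4 dEC/dEC endothelial, 7 fl/fl pericyte and 10 dEC/dEC pericyte wells. Thinning gave 1.045 fl/fl and 0.285 dEC/dEC endothelial wells and 0.0850 fl/fl and 0.285 dEC/dEC pericyte wells. With a mitochondrial share under 5%, 1 dEC/dEC pericyte well met it, and with all wells of 1000 UMIs or more, 6 fl/fl pericyte wells did. Leaving out a plate gave 0 to 1 dEC/dEC endothelial, 2 fl/fl endothelial (both times) and 1 to 2 fl/fl pericyte wells.

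Core UMIs per 10000 in fl/fl pericyte wells were 5.67 with a mitochondrial share under 5% and 3.69 as a mean of wells. Alternatives on single wells were chosen after seeing the data. Without the endothelial well of 6901 UMIs, dEC/dEC endothelial wells had 4.46 per 10000 and 0 met the rule. Without wells whose barcode held at least 1000 UMIs in another plate, they had 4.18 and 0 met it. Without wells whose barcode held more UMIs in another plate, fl/fl pericyte wells had 5.67.

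Genes called between the classes numbered 51, with 15 higher and 36 lower in endothelial sums. Without the filter they were 228 (49 and 179), and DESeq2 called 9 higher. Without wells whose barcode held more UMIs elsewhere they were 25 (7 and 18), and without those whose barcode held at least 1000 UMIs elsewhere 21 (7 and 14). Leaving out a plate gave 35 to 52 calls, 8 to 18 higher and 27 to 37 lower. Such fits hold few sums per class, and since edgeR pools the spread, a lone sum of a group is assumed to vary like the others.

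With the plate as a replicate block, 45 genes were called (13 higher, 32 lower), and *Ccnd2* had a log2 fold change of -2.70 (edgeR, adjusted p = 6.34e-06). A separate check concerned the plate numbers. Over 149 genes, deviations of endothelial sums with the same plate number correlated at r = 0.0142. With 2 plates per genotype and sums of few wells, this value cannot decide whether the numbers pair the plates. Plates of a number share a gate, in part for plate 2.

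Depth limits these results: a median retained well held 2 core UMIs, and 11 core genes had 0 in all retained wells.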
